A study of Mus musculus with 6 samples.

Results

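Motor proteins of the kinesin, dynein and myosin families were examined in mouse star pyramid neurons, which are excitatory cells in layer 4 of visual cortex. The genes were taken by symbol from the platform annotation. They comprised every kinesin numbered Kif or Kifc, the kinesin light chains (Klc), the subunits of cytoplasmic dynein (Dync, Dynl) and of dynactin (Dctn), and the numbered myosins (Myo, Myh). Each was represented by the transcript cluster with the highest mean among those assigned to that gene alone. This gave 71 genes of 14859 named genes, namely 33 of the kinesin family, 14 of dynein and dynactin and 24 myosins. A further 12 clusters that carry such a symbol have several entries in the annotation, and they were not analysed here. Among the members absent for lack of a cluster of their own were Kif17, Kif21b, Klc2, Kifc1, Dynll1, Dctn1 and Myh7.

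The tested neurons came from the deprived hemisphere (3 arrays, 1 to 3) and the comparison neurons from the non-deprived hemisphere (3 arrays, 1 to 3). All samples carry the label of monocular deprivation, so the non-deprived group is no untreated control: tetrodotoxin, a blocker of voltage-gated sodium channels, had been injected at postnatal days 12 to 13 and once more at days 13 to 14. Cells labelled with m-Citrin were picked by hand at postnatal day 14, and amplification in 2 rounds before hybridisation started from 0.3 to 1 ng of total RNA. The sources used here do not state the strain, the driver of the fluorescent label or whether the arrays of a group stem from separate animals, so a p-value covers only the spread among these samples. Less of a transcript per cell and fewer cells of one type in a sample cannot be told apart in such pooled material.

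Kinesins walk along microtubules, most of them towards the plus end, and carry vesicles, organelles and RNA out along axons and into dendrites. Cytoplasmic dynein, with its activator dynactin, moves cargo towards the minus end and so from axon tips back to the cell body. Other kinesins build the mitotic spindle and are known mainly from dividing cells. Myosins run on actin filaments: class V and VI myosins carry cargo in spines and terminals, class II myosins contract, and the sarcomeric heavy chains belong to muscle.

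The promoters of the mitotic kinesins shared a sequence feature that the choice of genes did not use. RefSeq promoter windows on GRCm38.p6, reaching from 250 bases before to 50 bases after a transcription start, were matched for 57 of the 71 genes (69 windows). The hexamer TTTGAA, searched on both strands, is the core of the cell cycle genes homology region, through which the DREAM complex is known to hold cell cycle genes silent in resting cells. It lay in 8 of the 9 windows of mitotic kinesins (88.9%), against 6 of the 60 windows of the other motor genes (10%) and 17.9% of all 32851 windows. Of these 9, Kif18a was without a match, and the mitotic kinesin Kif20a had no window. The CCAAT box, bound by NF-Y and searched on both strands (it does not overlap TTTGAA in the windows shown), lay in 5 of the 9 windows, against 37.4% of all windows. None of the 5 windows of cytoplasmic dynein-1 held either motif. A match describes these letters and is not evidence of binding.

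Mitotic kinesins (Kif20b, Kif23 and Kif15) are shown with a motif near their start, and the dynein heavy chain is shown as a transport motor with neither. Capitals mark TTTGAA and CCAAT on either strand, and each window is written 5′ to 3′ along the gene. The windows are chr19:34922108-34922407 (plus strand) for Kif20b, chr9:61946750-61947049 (minus strand) for Kif23, chr9:122950831-122951130 (plus strand) for Kif15 and chr12:110601145-110601444 (plus strand) for Dync1h1.
Kif20b: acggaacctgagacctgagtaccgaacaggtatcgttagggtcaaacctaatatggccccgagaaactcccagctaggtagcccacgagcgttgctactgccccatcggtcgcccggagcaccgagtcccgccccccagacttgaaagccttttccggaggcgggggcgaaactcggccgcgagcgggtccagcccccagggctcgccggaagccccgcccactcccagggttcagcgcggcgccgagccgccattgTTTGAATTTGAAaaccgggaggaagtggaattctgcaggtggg
Kif23: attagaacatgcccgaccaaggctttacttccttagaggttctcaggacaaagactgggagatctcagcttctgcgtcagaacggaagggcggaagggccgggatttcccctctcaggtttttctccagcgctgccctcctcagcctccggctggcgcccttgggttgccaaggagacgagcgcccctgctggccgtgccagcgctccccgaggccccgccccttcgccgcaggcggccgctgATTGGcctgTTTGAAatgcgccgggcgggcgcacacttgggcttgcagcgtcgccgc
Kif15: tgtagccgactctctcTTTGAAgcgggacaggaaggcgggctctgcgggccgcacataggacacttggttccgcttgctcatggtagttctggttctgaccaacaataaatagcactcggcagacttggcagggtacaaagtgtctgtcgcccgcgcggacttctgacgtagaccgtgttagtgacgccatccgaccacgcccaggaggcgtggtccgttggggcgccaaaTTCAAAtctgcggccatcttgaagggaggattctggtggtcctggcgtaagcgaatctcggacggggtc
Dync1h1: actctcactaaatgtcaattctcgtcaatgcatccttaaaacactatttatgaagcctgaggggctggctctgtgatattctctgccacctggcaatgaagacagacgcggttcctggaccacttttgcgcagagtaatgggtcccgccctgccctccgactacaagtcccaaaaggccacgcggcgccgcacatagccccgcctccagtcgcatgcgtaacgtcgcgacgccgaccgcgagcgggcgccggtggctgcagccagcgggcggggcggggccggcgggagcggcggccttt
With the bases before the start ending at -1, the motif began at 7 and 13 in Kif20b, where a pair of copies abut, at 2 in Kif23, and at -234 and -19 in Kif15. In Kif23 a CCAAT box on the opposite strand stood just ahead of it. In the mitotic kinesins not shown, the first TTTGAA began at -215 in Kif22, -103 in Kif2c, -19 in Kif11, 19 in Kif4 and 29 in Kifc5b.

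Over all genes, 2 arrays of the non-deprived group (2 and 3) were unlike the rest. Values above 7 on the log2 scale numbered 2769 and 2900 there, compared with 3727 to 3960 in the rest, and the mean correlation with the other arrays, across genes that are no independent replicates, was 0.863 and 0.886, against 0.906 to 0.916. The number of arrays limits the precision, and the plot of differences gives every motor gene also against non-deprived array 1 alone. The excitatory marker Slc17a7 (vesicular glutamate transporter) was at 9.92 to 10.35 in the deprived arrays and 8.92 to 9.44 in the non-deprived arrays. All 5 measured excitatory markers were higher on average in the deprived arrays, but only Slc17a7 did not overlap between groups. The background share of genes higher was 56.3%, and 70.8% among genes with a mean of 7 or more. Rorb was highest in non-deprived array 2 (8.573) and Neurod6 in non-deprived array 3 (8.245). Interneuron RNA was also measured: Sst was at 10.08 to 11.59 in the deprived arrays, against 10.46 to 11.36 in the non-deprived ones. Gad2 was at 7.81 to 9.13 in the deprived arrays and at 8.99, 5.98 and 6.34 in non-deprived arrays 1, 2 and 3. The part of interneurons in the results below was not tested.

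None of the 71 motor genes differed between the deprived and non-deprived groups at an adjusted p under 0.05 in limma, nor did any of the 14859 genes (background share 0%). The smallest adjusted p of a motor gene was 0.856. At an unadjusted p under 0.05, 3 motor genes were higher in the deprived arrays (background share 3.81%) and 0 were lower (background share 1.41%), 3 of 71 in either direction against a background share of 5.22%. The 3 were Dync1i1, Myh10 and Myo5c. Leaving out non-deprived array 1 raised this count to 13, and the background share rose to 9.65%. The count was 1 with deprived array 1 removed, where the background share was 3.54%. Deprived and non-deprived values were fully separated in 9 genes that were higher (background share 6.3%) and 3 that were lower in the deprived arrays (background share 4.03%), 12 of 71 in all against 10.3%. As shares of the motor genes these were 12.7%, 4.23% and 16.9%. On average 48 of the 71 were higher in the deprived arrays, against a background share of 56.3%, with a median log2 difference of 0.11, where that of all genes was 0.05. After median centring of the arrays 38 were higher and 33 lower, and after quantile normalization 43 and 28. With non-deprived array 1 as the sole comparison array, 39 were higher and 32 lower and the median was 0.05.

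The share of genes that were higher differed with the level of the gene. Of the 25 motor genes with a mean log2 value of 7 or more, 22 were higher on average in the deprived arrays, against 70.8% of all 3343 genes at that level. Their median difference was 0.49, and 0.29 over all such genes. With non-deprived array 1 alone these medians were 0.09 and 0.04. The groups were separated with the deprived arrays higher in 3 of the 25 (Klc1, Dynlt3 and Myh10), against a background share of 9.51% at that level. The 46 motor genes below that level had a median difference of 0.01, with 26 higher and 20 lower. In 14 of the 25 genes the lowest of all 6 values was that of non-deprived array 2, against 37.3% of all genes at that level. Probes differ in affinity, so a value says where one gene stands on each array, and levels of different genes are not ranked.

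Of the 13 cargo kinesins none passed the threshold. Their median log2 difference was 0.50, and 10 were higher and 3 lower on average in the deprived arrays. Of all genes 56.3% were higher, and of those with a mean of 7 or more 70.8%. With non-deprived arrays 2 and 3 left out the median of the cargo kinesins was 0.03. Non-deprived array 2 was the lowest, with a median over the 13 genes of 6.74, compared with 8.42, 8.72 and 8.30 in the deprived arrays and 8.47 and 7.85 in non-deprived arrays 1 and 3.

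Kif1a, which carries synaptic vesicle precursors along axons (cluster 6760754), was at 9.56, 10.07 and 9.86 in deprived arrays 1 to 3, against 9.92, 6.68 and 9.01 in non-deprived arrays 1 to 3. One array, non-deprived 2, lay far below the other 5, and the groups overlapped. The log2 difference was 1.29 ± 0.80 (SE, n = 3 arrays per group, 95% interval -0.62 to 3.21), and 0.36 without that array. Its relative Kif1b, a carrier of mitochondria and synaptic vesicle precursors, was at 9.95, 9.99 and 10.10 in the deprived and 10.02, 9.14 and 9.34 in the non-deprived arrays. The difference of 0.51 (-0.19 to 1.22) was -0.01 when non-deprived array 1 alone was used. Kif1c, linked to transport between the Golgi apparatus and the endoplasmic reticulum, varied most within the deprived group among the Kif1 genes, at 5.03, 6.79 and 6.72 against 8.41, 5.71 and 6.47 in the non-deprived arrays. A second cluster of the same gene stayed between 5.43 and 5.79 on all arrays, so that the clusters of Kif1c disagree.

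The conventional kinesin-1 heavy chains, which haul mitochondria, vesicles and neurofilaments, did not share one order of arrays. Kif5a was at 8.23, 7.69 and 8.14 in the deprived arrays, against 7.98, 6.74 and 7.85 in the non-deprived arrays. Its difference was 0.50 (95% interval -0.57 to 1.58), 0.11 without non-deprived array 2 and 0.05 with non-deprived array 1 alone. Kif5c was at 9.69, 9.71 and 9.36 in the deprived and 9.22, 8.79 and 9.46 in the non-deprived arrays, with a log2 difference of 0.43 (-0.26 to 1.13). Kif5b, the form made in nearly all tissues, was at 8.27, 8.57 and 8.21 in the deprived and 8.03, 9.25 and 7.84 in the non-deprived arrays. Its difference was -0.02 (-1.12 to 1.07). The same array that held the lowest Kif5a and Kif5c value thus held the highest Kif5b value. The light chain Klc1, which links kinesin-1 to its cargo, was at 9.19, 9.32 and 9.25 in the deprived arrays and at 9.10, 8.0 and 9.19 in the non-deprived arrays. The groups did not overlap, though the lowest deprived and the highest non-deprived value both round to 9.19, and the difference of 0.49 (-0.45 to 1.44) was 0.11 without non-deprived array 2 and 0.16 with non-deprived array 1 alone. Klc3 stayed between 5.94 and 6.44 and Klc4 between 6.0 and 6.73.

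Subunits of the heterotrimeric kinesin-2 motor, which serves axonal transport and cilia, varied to unequal extents. Kif3a, the subunit common to its forms, spanned only 0.48 over the 6 arrays, from 10.17 to 10.65, with a difference of 0.11 (95% interval -0.39 to 0.61). Its partners varied more. Kif3b was at 8.42, 8.79 and 8.30 in the deprived and 8.47, 6.59 and 8.14 in the non-deprived arrays. Kif3c, the neuronal partner, was at 8.83, 8.72 and 9.18 in the deprived arrays, against 9.10, 6.67 and 6.87 in the non-deprived arrays. For both partners non-deprived array 1 lay inside the range of the deprived arrays.

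The remaining cargo kinesins were Kif21a, Kif13a, Kifc2 and Kifc3. Kif21a, a kinesin-4 motor that slows microtubule growth, was at 9.10, 9.34 and 8.98 in the deprived and 9.41, 8.40 and 8.84 in the non-deprived arrays, with a log2 difference of 0.26 (95% interval -0.59 to 1.10). Kif13a, an endosome motor, ran from 5.81 to 6.52 in the deprived arrays and stood at 6.16, 4.92 and 5.01 in the non-deprived arrays. Kifc2, a neuronal kinesin with its motor at the C terminus, ranged from 6.86 to 8.20 in the deprived and 6.0 to 7.33 in the non-deprived arrays. Kifc3 held between 6.03 and 6.42 on all arrays.

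**Figure D1:**
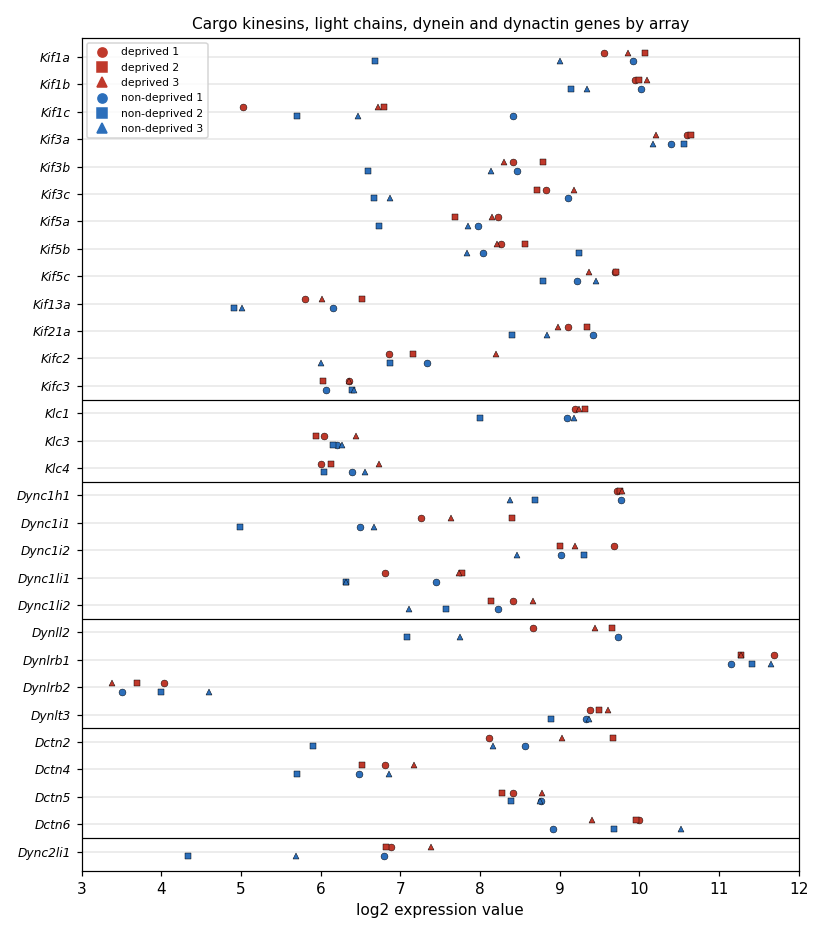
Log2 expression values (x axis) of the cargo kinesins, kinesin light chains, dynein-1 subunits, dynein light chains, dynactin subunits and dynein-2 (blocks from top to bottom), with deprived arrays in red above non-deprived arrays in blue and the symbol giving the array number. Non-deprived array 2 (blue squares) lies far left in Kif1a (6.68), Dctn2 (5.90), Dync1i1 (4.99) and Dync2li1 (4.33) but furthest right in Kif5b (9.25), while Kif3a and Dynlrb1 stay within 0.48 and 0.54 over all arrays.

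All 5 heavy, intermediate and light intermediate chain genes of cytoplasmic dynein-1, the retrograde motor, were higher on average in the deprived arrays. The background share was 56.3%, and 70.8% among genes with a mean of 7 or more. Of the 4 light chain genes, grouped apart, 3 were higher and 1 lower. The median log2 difference of the 5 was 0.77. With non-deprived array 1 alone it was 0.18. None passed the threshold (adjusted p of 0.856 to 0.880 in limma). The intermediate chain Dync1i1, the neuronal form that binds dynactin (cluster 6943889), was at 7.26, 8.40 and 7.63 in the deprived arrays, against 6.50, 4.99 and 6.67 in the non-deprived arrays. The groups did not overlap. Its difference of 1.71 ± 0.56 (SE, n = 3 arrays per group), or 3.27-fold, was the largest of the 71 genes, with unadjusted p = 0.0203 and adjusted p = 0.856 in limma. It stayed between 1.18 and 2.02 when single arrays were left out and was 1.26 against non-deprived array 1 alone. The other intermediate chain, Dync1i2, which is found in most cell types, ran from 9.0 to 9.69 in the deprived and 8.47 to 9.30 in the non-deprived arrays.

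The heavy chain Dync1h1, which holds the motor domain, was almost constant in the deprived arrays, at 9.72, 9.76 and 9.78, against 9.77, 8.69 and 8.38 in the non-deprived arrays. Non-deprived array 1 thus sat among the deprived values, and arrays 2 and 3 were lower. The difference of 0.80 (95% interval -0.16 to 1.77) was -0.02 without those 2 arrays. The light intermediate chain Dync1li1, a docking site for cargo adaptors, was at 6.80, 7.77 and 7.74 in the deprived and 7.45, 6.32 and 6.32 in the non-deprived arrays, with a log2 difference of 0.74 (-0.40 to 1.88). In both light intermediate chains non-deprived arrays 2 and 3 were the lowest: Dync1li2 was at 8.42, 8.13 and 8.67 in the deprived and 8.23, 7.58 and 7.11 in the non-deprived arrays.

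Dynactin, which makes dynein processive, was represented by 4 subunits. Dctn2 (dynamitin) was at 8.12, 9.67 and 9.03 in the deprived and 8.57, 5.90 and 8.17 in the non-deprived arrays. Its difference was 1.39 (95% interval -0.50 to 3.28), 0.57 without non-deprived array 2 and 0.37 with non-deprived array 1 alone. The subunits of the pointed-end complex were steadier or went another way. Dctn5 ran from 8.27 to 8.78 over all arrays. Dctn6 was highest in non-deprived array 3 (10.52) and lowest in non-deprived array 1 (8.91), around deprived values of 9.40 to 9.99. Dctn4 was at 6.52 to 7.17 in the deprived arrays and 5.70 to 6.86 in the non-deprived arrays.

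Dynein light chains bind the intermediate chains and, in the case of the LC8 chain Dynll2, many other proteins of synapses, where it also serves myosin V. Dynll2 was at 8.67, 9.66 and 9.45 in the deprived and 9.73, 7.08 and 7.75 in the non-deprived arrays. Its difference was 1.07 (95% interval -0.64 to 2.78) and turned to -0.47 against non-deprived array 1 alone, which held the highest value of all. Dynlrb1, a roadblock chain, was steady at 11.15 to 11.69. Dynlt3, a Tctex-type chain, was at 9.38 to 9.61 in the deprived and 8.89 to 9.37 in the non-deprived arrays, without overlap. Dynlrb2, known from ciliated tissues, lay between 3.38 and 4.60, near the olfactory receptor values described below.

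Dynein-2, the retrograde motor of primary cilia, had 1 gene on the list. Its light intermediate chain Dync2li1 was at 6.88, 6.82 and 7.38 in the deprived and 6.79, 4.33 and 5.70 in the non-deprived arrays. The groups did not overlap, although non-deprived array 1 was just below the lowest deprived value. The difference was 1.42 ± 0.62 (SE, n = 3 arrays per group, unadjusted p = 0.0570 and adjusted p = 0.856 in limma), and 0.23 with non-deprived array 1 alone. The intermediate chains of the same motor, Wdr60 and Wdr34, are among 17 measured intraflagellar transport genes. Wdr60 was at 7.73, 6.94 and 7.09 in the deprived and 5.74, 6.66 and 4.66 in the non-deprived arrays. Wdr34 was at 6.71, 6.80 and 8.13 in the deprived and 6.26, 6.05 and 5.44 in the non-deprived arrays. Neither overlapped between groups and neither passed the threshold. Of the 17 genes, 12 were higher (background share 56.3%) and 5 lower on average. The median was 0.27, and 0.15 with non-deprived array 1 alone. At an unadjusted p under 0.05, 4 were higher (background share 3.81%), namely Wdr19, Ift81, Wdr34 and Wdr60.

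Mitotic kinesins other than Kif18a and Kifc5b varied little between arrays, with 5 of all 10 higher and 5 lower on average in the deprived arrays and a median log2 difference of 0.0027. As a reference range for genes not expected in cortical neurons, the mean values of 718 olfactory receptor genes had a median of 3.11 and a 95th percentile of 5.46. The mean of each mitotic kinesin but Kifc5b was below that percentile. The means of 41 of all 71 motor genes were above it, as were those of 8040 of all 14859 genes. Kif11, the motor that pushes spindle poles apart, was at 4.05, 3.51 and 3.90 in the deprived and 3.52, 3.63 and 3.60 in the non-deprived arrays. Kif15, which can take over that role, was at 3.01 to 3.08 in the deprived and 2.82 to 2.99 in the non-deprived arrays, with a log2 difference of 0.14 (95% interval -0.13 to 0.42) without overlap. Kif20b, needed to complete cell division, stayed between 2.69 and 3.09.

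Kif23, a subunit of centralspindlin in the dividing cell's midzone, ran from 3.59 to 4.01, with a difference of 0.03 (95% interval -0.35 to 0.40). Kif20a, a cytokinesis kinesin, ran from 4.52 to 4.99 (difference -0.01, -0.45 to 0.42), and the chromokinesin Kif22 from 4.42 to 4.97 (difference -0.01, -0.45 to 0.44). The chromokinesin Kif4 held between 3.21 and 3.40. Kif2c, a microtubule depolymerase of centromeres, was at 3.48 to 3.63 in the deprived and 3.64 to 3.74 in the non-deprived arrays, with a log2 difference of -0.14 (-0.41 to 0.13).

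Kif18a and Kifc5b departed from this pattern, Kif18a through deprived array 1 and Kifc5b through low values on deprived arrays 2 and 3. Kif18a, a kinesin that aligns chromosomes, was at 4.99 in deprived array 1, at 3.35 and 3.12 in deprived arrays 2 and 3 and at 2.75 to 2.91 in the non-deprived arrays. Its difference of 0.97 (95% interval -0.16 to 2.10) was 0.38 without deprived array 1. Kifc5b, a minus-end kinesin of the spindle, was at 7.79, 5.87 and 6.29 in the deprived and 7.17, 7.77 and 7.56 in the non-deprived arrays, with a log2 difference of -0.85 (-2.17 to 0.47). Kifc5b is nearly identical to Kifc1, so probes may read both, and its value is uncertain.

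Proliferation markers gave similar values. The means of all 9 measured markers lay below the 95th percentile of the olfactory receptors, and their summed linear level was 184 to 203 in the deprived and 187 to 197 in the non-deprived arrays. None was listed at 0. Mki67 was at 3.49, 3.62 and 3.83 in the deprived and 3.39, 3.13 and 2.62 in the non-deprived arrays. Top2a was at 2.63 to 2.93 in the deprived and 2.58 to 2.89 in the non-deprived arrays. Of the 9, 3 were higher and 6 lower on average (median -0.01, and 0.07 with non-deprived array 1 alone). At an unadjusted p under 0.05, 2 were higher (background share 3.81%), namely Mki67 and Ccna2.

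**Figure D2:**
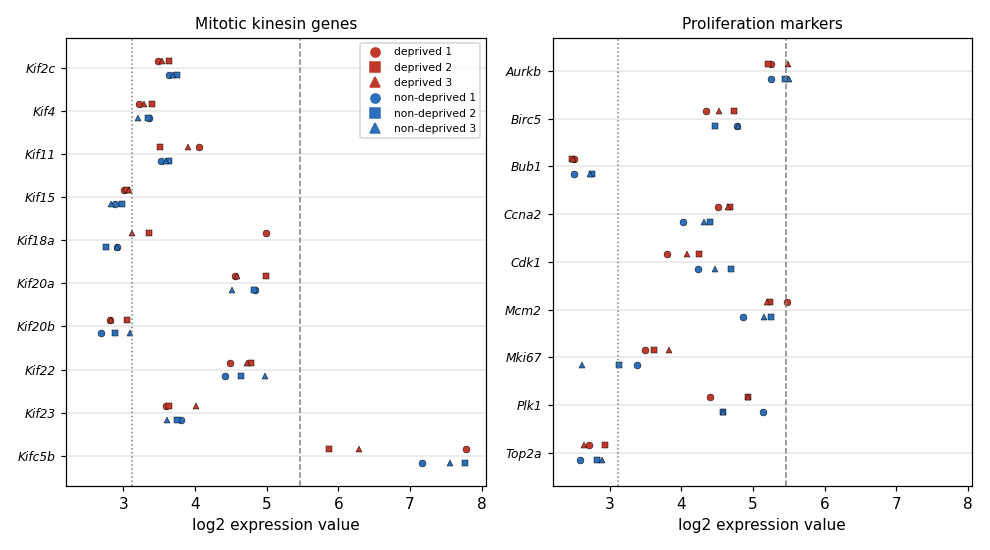
Log2 expression values (x axis) of the mitotic kinesins (left) and of the proliferation markers (right), deprived arrays in red above non-deprived arrays in blue, symbols giving the array number. The dotted line marks the median (3.11) and the dashed line the 95th percentile (5.46) of the means of 718 olfactory receptor genes; only Kifc5b lies wholly to the right of the dashed line, and deprived array 1 stands out in Kif18a at 4.99.

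Among the 7 other kinesins was Kif2a, which has a known role in neurons. Kif2a, a microtubule depolymerase that trims axon branches, was at 9.98, 9.93 and 9.56 in the deprived and 9.50, 9.45 and 9.71 in the non-deprived arrays, with a log2 difference of 0.27 (95% interval -0.31 to 0.85). The deprived values overlapped those of the non-deprived group through array 3 of each. The other 6 had means below 5.46. Kif9, a kinesin of motile cilia, was at 5.47 in deprived array 1 and at 4.09 to 4.66 on the remaining arrays. Kif6 was at 4.17, 4.43 and 4.54 in the deprived and 4.51 to 4.60 in the non-deprived arrays, with a log2 difference of -0.19 (-0.54 to 0.15). Kif24 (4.29 to 4.49), Kif27 (3.45 to 3.65), Kif12 (4.97 to 5.25) and Kif26b (4.71 to 5.44) completed the group.

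Among the 20 unconventional myosins, 13 were higher (background share 56.3%) and 7 lower on average in the deprived arrays (median log2 difference 0.08). Every value was above 5.46 in 4 of them, namely Myo5a, Myo18a, Myo9b and Myo1c, against 5318 of all 14859 genes. Myo5a, which carries endoplasmic reticulum and vesicles into spines, was at 10.13, 9.67 and 9.94 in the deprived and 9.74, 9.90 and 9.52 in the non-deprived arrays. Its difference was 0.19 (95% interval -0.39 to 0.77), and non-deprived array 2 was not low. Myo18a, a Golgi-linked myosin, was at 7.14, 7.46 and 7.09 in the deprived and 6.87, 6.77 and 6.39 in the non-deprived arrays, without overlap. Myo9b, a class IX myosin, was at 7.03, 5.85 and 6.59 in the deprived and 5.85 to 6.11 in the non-deprived arrays. Myo1c, a membrane-linked class I myosin, was at 5.52 to 5.67 in the deprived and 5.68 to 5.91 in the non-deprived arrays, with a log2 difference of -0.23 (-0.69 to 0.23).

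Myo16, a myosin expressed mainly in brain, was at 7.55, 6.64 and 7.02 in the deprived and 7.70, 4.78 and 6.07 in the non-deprived arrays. Both the highest and the lowest value fell in the non-deprived group. The difference of 0.89 (95% interval -0.87 to 2.65) was 0.19 without non-deprived array 2 and -0.62 against non-deprived array 1 alone. Myo5c, a class V myosin known from glands and other epithelia (cluster 6990530), was at 4.66, 4.61 and 4.20 in the deprived and 3.95, 3.93 and 4.03 in the non-deprived arrays. The groups did not overlap, all values were under 5.46, and the difference of 0.52 ± 0.16 (SE, n = 3 arrays per group) had an unadjusted p of 0.0152 and an adjusted p of 0.856 in limma. It stayed between 0.43 and 0.66 when single arrays were left out and was 0.54 against non-deprived array 1 alone.

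The other myosins of known cargo or membrane roles showed overlapping groups. Myo6, which moves towards the minus end of actin and takes part in endocytosis of receptors, was at 5.10, 3.56 and 4.33 in the deprived and 4.75, 3.51 and 3.84 in the non-deprived arrays, with a log2 difference of 0.29 (95% interval -0.82 to 1.41). Array 1 was highest and array 2 lowest in both groups. Myo10, the filopodial myosin, ran from 4.42 to 5.08, with a difference of 0.16 (-0.28 to 0.60). Myo1d, a class I myosin, was at 4.11, 5.17 and 4.32 in the deprived and 5.64, 4.71 and 4.58 in the non-deprived arrays, with a log2 difference of -0.44 (-1.36 to 0.48). Myo5b, a recycling endosome motor, ran from 4.69 to 5.76 in the deprived and 4.37 to 5.38 in the non-deprived arrays, and Myo19, a myosin of mitochondria, from 5.49 to 6.15 in the deprived and 5.46 to 6.36 in the non-deprived arrays.

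In the myosins of sensory hair cells and stereocilia the groups overlapped. Myo3a lay between 2.11 and 2.31, Myo3b between 4.37 and 5.09, Myo7a between 5.42 and 5.85 and Myo15 between 5.08 and 5.26. Myo7b, of intestinal microvilli, ran from 4.72 to 4.99. The class I myosins of blood cells, Myo1f (4.23 to 4.63) and Myo1g (5.20 to 5.43), overlapped between groups as well, as did Myo1h (4.33 to 4.76) and Myo1e (4.64 to 5.58).

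The non-muscle myosin II heavy chains, which contract actin in growth cones and spines, differed in their spread. Myh10, the isoform IIB that predominates in brain (cluster 6781941), was at 9.04, 9.40 and 8.94 in the deprived and 8.84, 7.34 and 7.46 in the non-deprived arrays. The groups did not overlap, though non-deprived array 1 was just below the lowest deprived value. The difference was 1.25 ± 0.48 (SE, n = 3 arrays per group), or 2.38-fold, with an unadjusted p of 0.0378 and an adjusted p of 0.856 in limma. It ranged from 0.98 to 1.73 when single arrays were left out and was 0.29 without non-deprived arrays 2 and 3. Myh9, isoform IIA, was at 6.21, 5.70 and 5.83 in the deprived and 6.28, 5.64 and 5.50 in the non-deprived arrays, with a log2 difference of 0.11 (95% interval -0.59 to 0.81). Myh14, isoform IIC, held between 5.66 and 5.78, the narrowest span of the 71 genes (0.12).

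Myh11, the smooth muscle heavy chain, was the only muscle myosin with a cluster of its own. It lay at 4.89, 4.86 and 4.79 in the deprived and 4.98, 4.97 and 4.91 in the non-deprived arrays. The groups did not overlap, with a difference of -0.11 (95% interval -0.42 to 0.21). The 6 mural and smooth muscle markers also had means below 5.46 (summed linear level 163 to 187 in the deprived and 147 to 174 in the non-deprived arrays). The 5 striated muscle markers summed to 190 to 243 in the deprived and 243 to 329 in the non-deprived arrays. Of these, 2 were above 5.46 on every array, Acta1 (5.59 to 7.45) and Ckm (5.62 to 6.175). A value above 5.46 is therefore no proof of expression in these neurons.

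**Figure D3:**
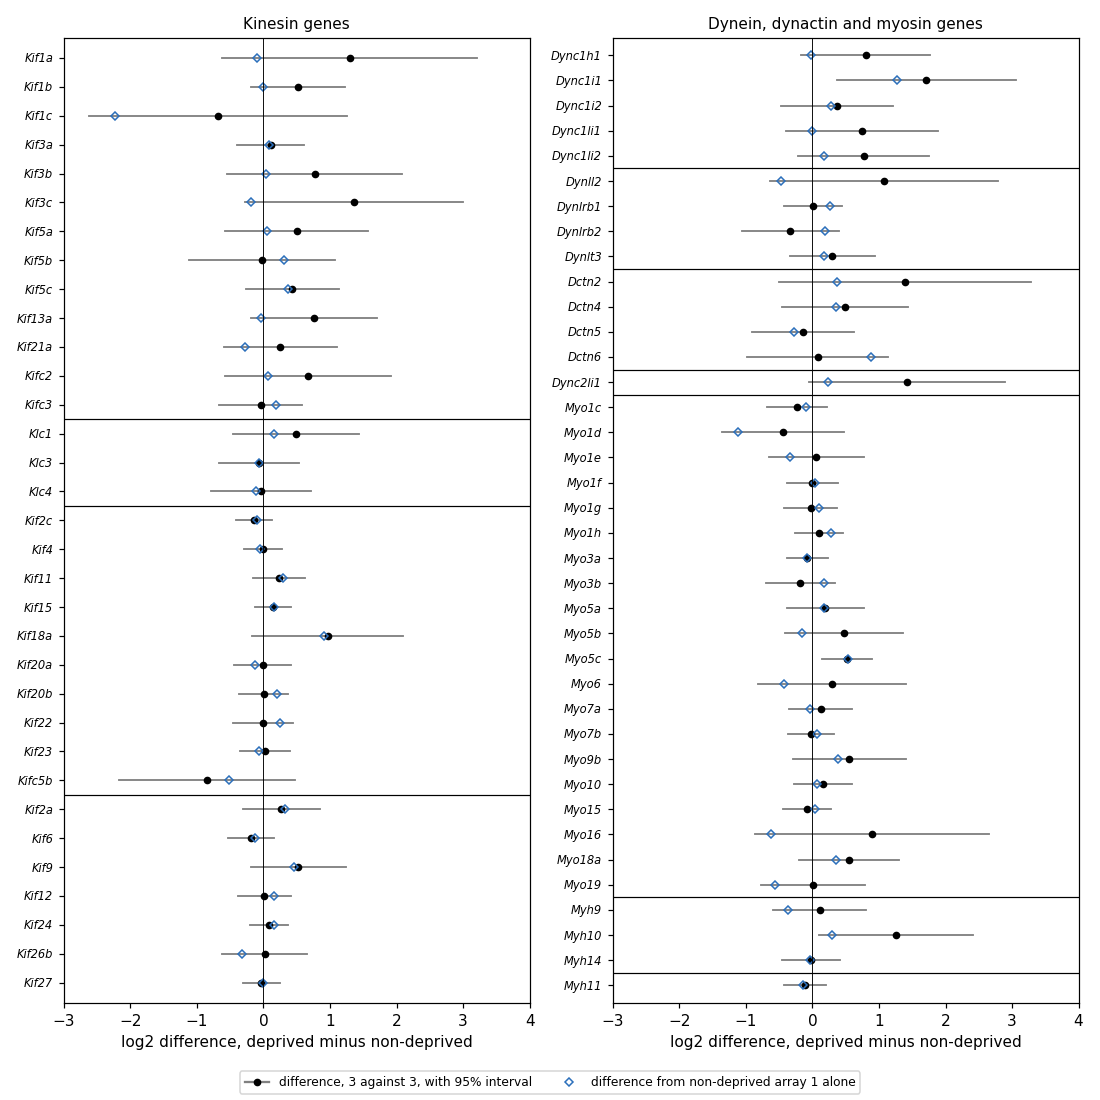
Log2 difference, deprived minus non-deprived (x axis), of each motor gene, with kinesins left and dynein, dynactin and myosin genes right. Black points with grey bars are the difference of 3 against 3 arrays and its 95% interval, and open diamonds are the deprived mean minus non-deprived array 1 alone. Dync1i1 (1.71), Myh10 (1.25) and Myo5c (0.52) have intervals above 0, and for Kif1a, Kif3c, Dync1h1, Dynll2 and Myo16 the diamond lies at or below 0.

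Low values of the motor genes fell most often on non-deprived arrays 2 and 3. Over all 71 genes the lowest value fell on non-deprived array 2 in 25 and on non-deprived array 3 in 18, compared with 7, 10 and 3 on deprived arrays 1 to 3 and 8 on non-deprived array 1. For non-deprived array 2 this was 35.2% of the motor genes, against 23.2% of all genes. For non-deprived array 3 the shares were close, at 25.4% and 23.6%. The median range over the 6 arrays was 1.41 for the 25 genes with a mean of 7 or more, against 1.63 for all genes at that level. It was 0.55 for the rest, against 0.84 for all genes with a mean under 7. Within the first set the arrays did not shift as one: Kif3a, Kif2a, Dynlrb1, Dctn5 and Myo5a spanned 0.48 to 0.61, while Kif1a, Kif3c, Dctn2 and Dynll2 spanned 2.51 to 3.76. Other genes varied on other arrays: Kif1c was lowest on deprived array 1 and highest on non-deprived array 1, and Kif18a was highest on deprived array 1.

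**Figure D4:**
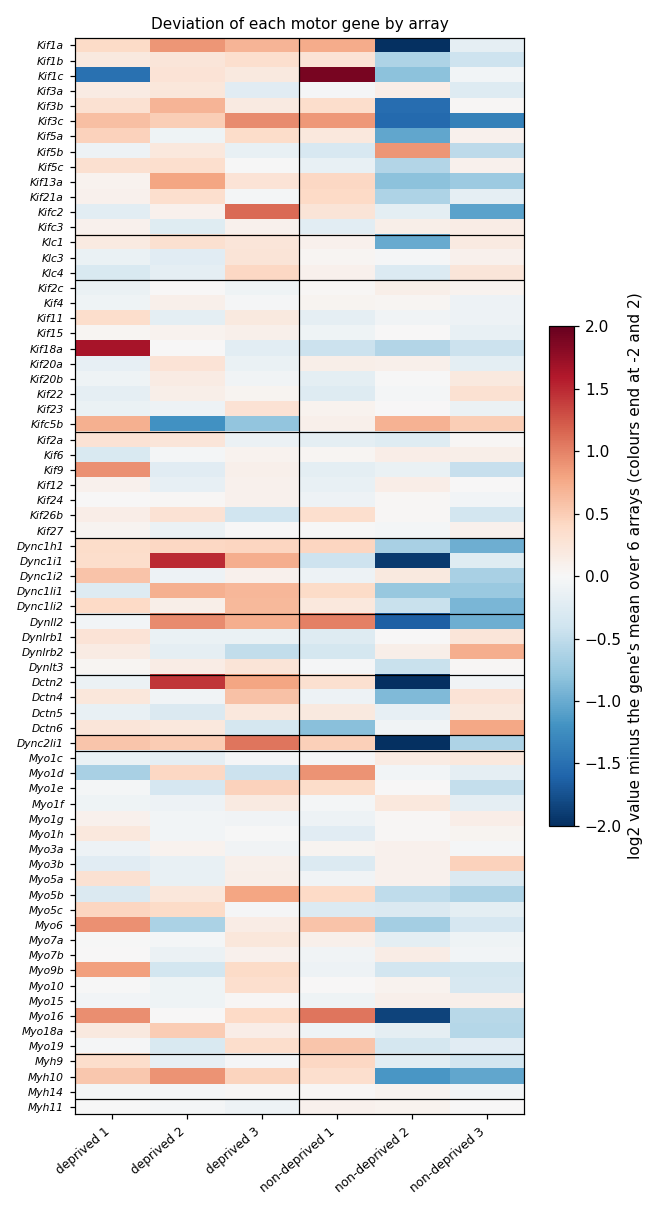
Log2 value of each motor gene minus its own mean over the 6 arrays (colour, ending at -2 and 2), with genes in rows by role and arrays in columns, deprived left of non-deprived. Blue cells gather in the column of non-deprived array 2 among cargo kinesins, Dync1i1, Dctn2, Dynll2, Myo16 and Myh10 and in array 3 among Kif3c, Dync1h1, Dynll2 and Myh10, whereas the rows of mitotic kinesins other than Kif18a and Kifc5b are pale.

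No gene of the lists of tracks and partners passed the threshold. Of 19 measured kinesin cargo adaptors, 13 were higher and 6 lower on average in the deprived arrays (median log2 difference 0.35). With non-deprived array 1 alone that median was -0.14. The background share of genes higher was 56.3%, and 70.8% among genes with a mean of 7 or more. Mapk8ip2, a scaffold that binds kinesin light chains, was at 8.82, 9.77 and 9.07 in the deprived and 8.98, 7.40 and 6.79 in the non-deprived arrays. Fez1, a kinesin-1 adaptor, was at 10.65 to 10.75 in the deprived and 9.13 to 10.39 in the non-deprived arrays, without overlap. Kifap3, which joins Kif3a and Kif3b to cargo, was highest in non-deprived array 2 at 10.28, where Kif3b was lowest.

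Of 14 dynein regulators and adaptors, 6 were higher and 8 lower (median -0.07, and 0.13 with non-deprived array 1 alone). Ndel1, a dynein regulator that works with Lis1, was at 6.32, 6.89 and 7.13 in the deprived and 5.81, 5.58 and 5.23 in the non-deprived arrays (unadjusted p = 0.00640, adjusted p = 0.856 in limma). Pafah1b1, which encodes Lis1, was steady at 10.08 to 10.39 in the deprived and 10.10 to 10.32 in the non-deprived arrays. Hook3, an adaptor, ran the other way at 7.60 to 7.76 in the deprived and 7.85 to 9.69 in the non-deprived arrays. Among 18 microtubule-associated proteins 15 were higher and 3 lower (median 0.27, and -0.0040 with non-deprived array 1 alone), and among 9 tubulins 5 and 4 (median 0.47, and 0.26 with that array alone). For these lists too the background share of genes higher was 56.3%, and 70.8% among genes with a mean of 7 or more. Among 10 myosin partners and light chains 3 were higher and 7 lower (median -0.13, and 0.02 with non-deprived array 1 alone). The 9 measured axonemal dynein genes, which drive motile cilia, had a median of 0.04, and -0.01 with non-deprived array 1 alone, and 8 of them had means below 5.46.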

How the data were processed

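The deposited table holds log2 expression values that the authors computed for each transcript cluster on each array, for 23331 clusters on 6 one-colour exon arrays. The log2 scale was read from the values (0.584 to 13.6); the sources used here name no background correction, normalization or summarization, and the build mm9 comes from the submitters' processing notes. No scaling was added, and no gene was left out as undetected.

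Clusters were named through the platform annotation: 14995 had 1 symbol, 1019 several and 7317 no entry. Entrez identifiers found 14940 in RefSeq (GRCm38.p6) with 0 changed symbols. The highest-mean cluster stood for a gene. Groups were compared with limma 3.58.1 in R 4.3.3 (lmFit, eBayes with a variance trend, two-sided, Benjamini-Hochberg over all 14859 genes, threshold 0.05), after tests on simulated data. Intervals are 95%, from the moderated fit. Differences are printed for the 5 motor genes with the smallest p in each direction and for a list of 34 names, 8 of which had no cluster of their own; other motor genes are given by level. Motor genes, role groups, marker lists and the list of names were chosen with earlier results of these data known. The marker lists cover excitatory neurons, interneurons, astrocytes, oligodendrocyte lineage, microglia, endothelium, mural cells, proliferation and striated muscle.

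The alternatives were quantile normalization, median centring, a block for the replicate number, a filter at the 25th percentile of the mean, the mean over clusters, no variance trend, and leaving out arrays.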

Additional observations from a re-analysis of the deposited data

How the results depend on the processing

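Over the 13 alternatives limma called 0 of the 71 motor genes and 0 of all genes at an adjusted p under 0.05. The motor genes higher at an unadjusted p under 0.05 numbered 3, and 1 to 13 when single arrays were left out, with 13 when non-deprived array 1 was removed (all genes higher then 1434). Those lower numbered 0, and 0 to 1. Without non-deprived arrays 2 and 3 there were 0 higher and 1 lower (Kif1c); in this setting 1 non-deprived array is left and is assumed to vary like the deprived ones. The medians of cargo kinesins (0.0327) and dynein-1 (0.179) moved there by more than their genes' median standard error. The signs of 25 of the 71 differences turned there (17 to lower, 8 to higher), 12 of them among the genes with a printed difference: Kif1a (-0.0947), Kif1b (-0.01), Kif5b (0.3153), Kif21a (-0.2763), Kif22 (0.2513), Kif23 (-0.0607), Dync1h1 (-0.0223), Dync1li1 (-0.0107), Dynll2 (-0.472), Myo6 (-0.4233), Myo16 (-0.624) and Myh9 (-0.3617). Median centring turned 10 signs, of the printed ones Kif23 (-0.0717), and quantile normalization 9, of the printed ones Myh9 (-0.0546). Leaving out single arrays gave -0.2912 to 0.4118 for Kif5b, -0.152 to 0.062 for Kif20a, -0.1362 to 0.1418 for Kif22, -0.109 to 0.1015 for Kif23, -0.0908 to 0.6807 for Myo6 and -0.0457 to 0.3418 for Myh9. The cause was not tested. Titles number the arrays with r in the deprived and l in the non-deprived group and do not say whether a number marks 1 animal. Over all genes, deviations of same-numbered arrays from their group means had r of -0.0506, -0.0184 and -0.0033. With 3 arrays per group such values cannot show whether same-numbered arrays share an animal, which is unknown. The main fit used no pairing. With the replicate number as a block, 1 motor gene was higher at an unadjusted p under 0.05. The median difference of all genes was 0.05, and -0.04 and -0.05 after quantile normalization and median centring; that of the motor genes was then 0.07 and 0.01.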

Other observations

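Markers of other cell types gave these values. Of 6 interneuron markers, 5 had means above the 95th percentile of the olfactory receptors, with a summed linear level of 1864 to 3827 in the deprived and 1758 to 3512 in the non-deprived arrays. Vip was the marker below that percentile. Sst made up most of each interneuron sum. In non-deprived array 2 Sst was at 11.34, while Gad1 (5.68), Gad2 (5.98) and Pvalb (3.76) had their lowest values there. Of the 6 interneuron markers, 4 were higher (background share 56.3%) and 2 lower on average in the deprived arrays (median log2 difference 0.60). The sum over 5 measured excitatory markers was 2260 to 2627 in the deprived and 1372 to 1726 in the non-deprived arrays. Of these 5, only Slc17a7 was separated between groups. Astrocyte markers summed to 144 to 311 in the deprived and 155 to 170 in the non-deprived arrays, and oligodendrocyte lineage markers to 150 to 187 in the deprived and 144 to 185 in the non-deprived arrays. Microglia markers summed to 184 to 240 in the deprived and 195 to 232 in the non-deprived arrays, and endothelial markers to 78.9 to 82.6 in the deprived and 73.0 to 74.9 in the non-deprived arrays. Deprived array 1 held the highest value of 13 of the 71 motor genes, Kif18a and Kif9 among them, against 2027 of all 14859 genes. It also held the highest values of 4 of the 5 astrocyte markers, Aldh1l1 (6.67), Slc1a3 (6.04), Aqp4 (6.24) and Gja1 (5.37), and the lowest of Gfap (4.75). The part of these cells in the motor gene values was not tested.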
